A study of Homo sapiens with 12 samples.

Results

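The genes read as one set were 8 cadherins, CDH1, CDH2, CDH3, CDH4, CDH6, CDH11, CDH13 and CDH16, 8 of the 40649 genes in the count tables. The set was matched by gene symbol and was built around CDH13, which was chosen by its high level in shNC_H2O2 against shNC in these same libraries. The other members were chosen with earlier results of these data known, so their p-values below are given as descriptions. All 8 symbols were found, and 7 genes had enough counts to be tested, all but CDH11.

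Cadherins are calcium-dependent adhesion proteins that join neighbouring cells. In classical cadherins the extracellular repeats bind a cadherin of the next cell, while the short cytoplasmic tail binds p120 and beta-catenin and, through alpha-catenin, actin. Tubule epithelium of the kidney is known for carrying N-cadherin and cadherin-6 beside E-cadherin, and for the kidney-specific cadherin encoded by CDH16. T-cadherin, the product of CDH13, has the repeats but no cytoplasmic tail, being held in the membrane by a glycosylphosphatidylinositol (GPI) lipid, and it is known as a receptor of adiponectin.

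Polyadenylated RNA was counted in 12 bulk libraries of the HK-2 line, immortalised epithelial cells of the human proximal tubule, with 4 libraries per group. The groups were shNC (control short hairpin RNA, no treatment), shNC_H2O2 (control hairpin, hydrogen peroxide) and shYAP1_H2O2 (hairpin against YAP1, hydrogen peroxide). The oxidant was used at 150 µM for 48 h, and YAP1 is a co-activator that works with TEAD factors downstream of the Hippo pathway. Cells given the YAP1 hairpin without the oxidant were not analysed here, and the labels do not say whether a hairpin line was 1 clone. Nor do they state that replicates were cultured separately. The p-values below therefore rest on the differences among the libraries of a group, which may be technical.

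Total counts ranged from 30789997 to 46582873, so that 3 counts, used as the detection floor, were worth 0.0644 to 0.0974 CPM (counts scaled to library size). The floor covers counting error only. YAP1 lay at 132 ± 7.25 CPM in shNC, 156 ± 5.19 in shNC_H2O2 and 128 ± 11.7 in shYAP1_H2O2 (SD, n = 4). The libraries labelled shYAP1_H2O2 were thus lower in YAP1 than shNC_H2O2 (log2 fold change -0.29 ± 0.07 SE, adjusted p = 0.00346) and did not differ detectably from shNC (-0.05, adjusted p = 0.636). Genes of the mitochondrial genome took 13.9% of the counts in shNC replicate 4 and 11.3% in shYAP1_H2O2 replicate 3, with 4.54% to 5.64% elsewhere. Of 12 matched proximal tubule markers, 8 stayed under 1 CPM in every library, among them LRP2 and CUBN. The tubule transcription factor PAX8 was at 426 ± 18.8 CPM in shNC, 244 ± 11.6 in shNC_H2O2 and 319 ± 40.9 in shYAP1_H2O2.

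CDH13 (ENSG00000140945, GRCh38 chromosome 16, 82626803 to 83800640, plus strand) stayed under 1 CPM in both groups outside shNC_H2O2. It was at 0.119, 0.527, 0.452 and 0.285 CPM in shNC replicates 1 to 4, from 4, 23, 18 and 12 counts. In shNC_H2O2 it was at 55.1, 52.0, 54.0 and 53.3 CPM, from 2170, 2116, 1704 and 2293 counts. In shYAP1_H2O2 it was at 0.624, 0.473, 0.571 and 0.552 CPM. All 4 libraries of shNC_H2O2 were high and close together, and no other library came near them.

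**Figure D1:**
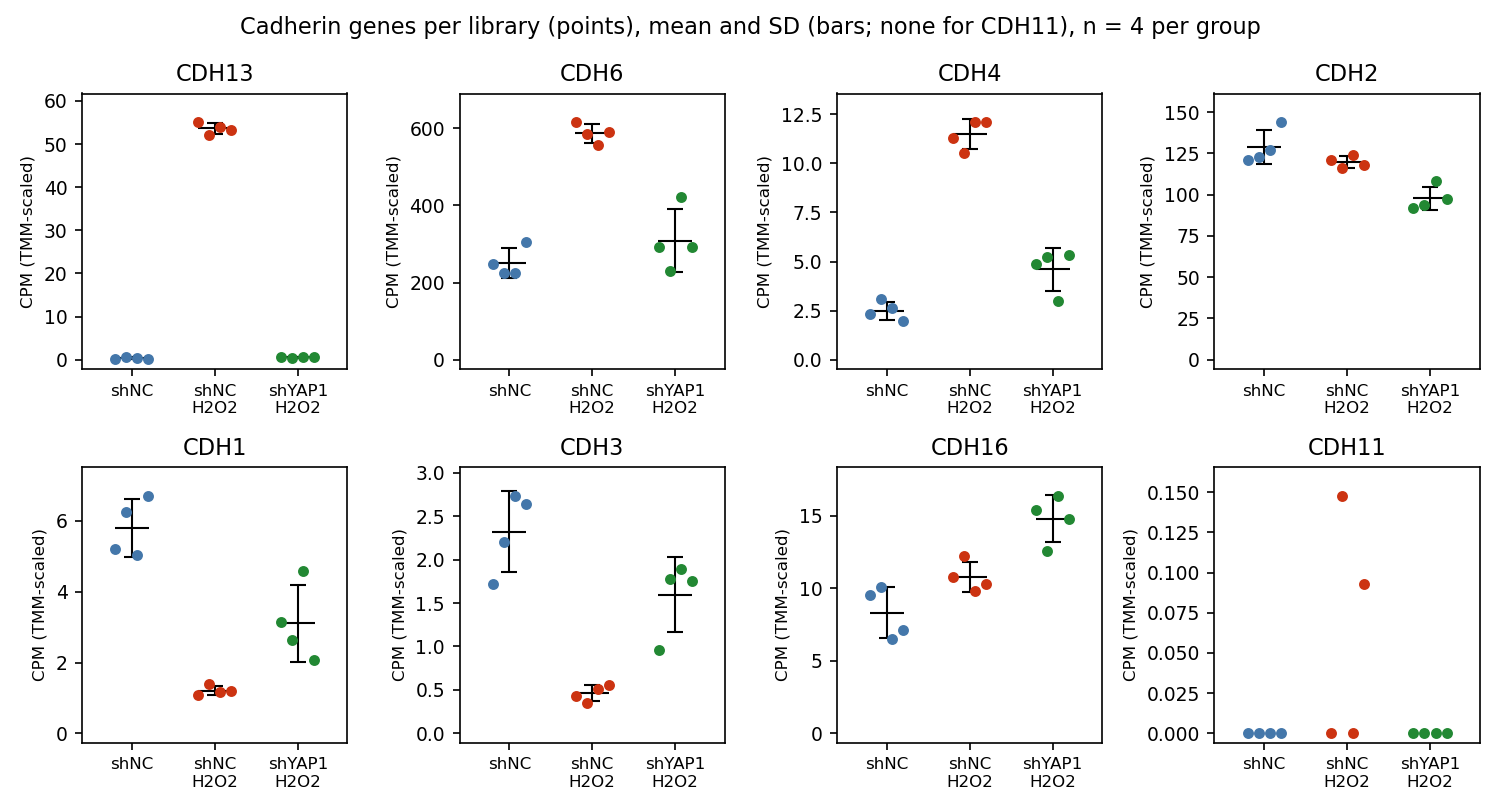
Level of each cadherin gene in each library, in CPM on TMM-scaled library sizes (vertical axes, linear from 0, a different range per gene), by group. Points are libraries, and black bars are the mean and SD of 4. CDH13 stands at 52.0 to 55.1 CPM in shNC_H2O2 and under 1 CPM elsewhere, CDH6 and CDH4 are highest in shNC_H2O2, and CDH1 and CDH3 are lowest there.

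By the fitted fold change, CDH13 was 149-fold higher in shNC_H2O2 than in shNC (7.22 ± 0.19 on the log2 scale). Of 19268 tested genes it had the highest log2 fold change in this comparison, which is what brought it into the set and is given as a description. Against shNC_H2O2, CDH13 was 95.9-fold lower in shYAP1_H2O2 (-6.58 ± 0.18) and ranked 19264 of 19268 from the highest. That comparison uses the same shNC_H2O2 libraries that chose the gene, so no p or interval is given for it. Between the 2 groups that were low, CDH13 was at 0.555 ± 0.0623 CPM in shYAP1_H2O2 and 0.346 ± 0.182 in shNC, a difference of 0.64 ± 0.27. The low shNC values also entered the choice of CDH13, so this difference too is given without p or interval, as a description. Leaving out 1 library or changing the analysis moved it between 0.40 and 0.91.

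Of the annotated antisense genes CDH13-AS1 and CDH13-AS2, the latter shares 141 exon bases with CDH13 (1.26% of its exon bases). CDH13-AS2 had 0 counts in the 8 libraries of shNC and shYAP1_H2O2 and was at 0.178, 0.270, 0.539 and 0.279 CPM in shNC_H2O2. Since the use of strand in counting is not stated, reads of the shared bases cannot be told apart between these genes. In the other members 0% to 11.1% of exon bases lie in another annotated gene.

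Most genes around CDH13 did not follow it. Within 5 Mb of its start, 65 other genes were tested, with a median log2 fold change of -0.49 where shNC_H2O2 was set against shNC and 0.34 where shYAP1_H2O2 was set against shNC_H2O2, opposite in sign to CDH13 each time. In the former comparison 26 of them were lower and 3 higher, beside 22.6% lower and 23.9% higher of all tested genes. In the latter 31 were higher and 3 lower, beside 22.0% higher and 21.0% lower of all tested genes. FOXC2 and FOXL1, forkhead genes that start 3.940 and 3.950 Mb away, went the way of CDH13 in these 2 comparisons. FOXC2 was at 3.89 and then -1.89, and FOXL1 at 2.87 and then -2.49. The level of FOXC2 was low, at 0.183 ± 0.104, 2.68 ± 0.486 and 0.727 ± 0.415 CPM by group. It stayed above shNC in shYAP1_H2O2 (2.00 ± 0.45, adjusted p = 0.00292). MPHOSPH6, the nearest tested protein-coding gene before CDH13 at 457 kb, was lower in shNC_H2O2 than in shNC (-0.69 ± 0.11, adjusted p = 6.0e-05). HSBP1, which starts 7.2 kb past its end, was lower too (-0.48 ± 0.06, adjusted p = 7.0e-06). The cause of this regional shift was not tested. With the shift of the 51 neighbouring genes removed, the CDH13 difference was 7.69 in the first comparison, -6.98 in the second and 0.71 between shYAP1_H2O2 and shNC.

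**Figure D2:**
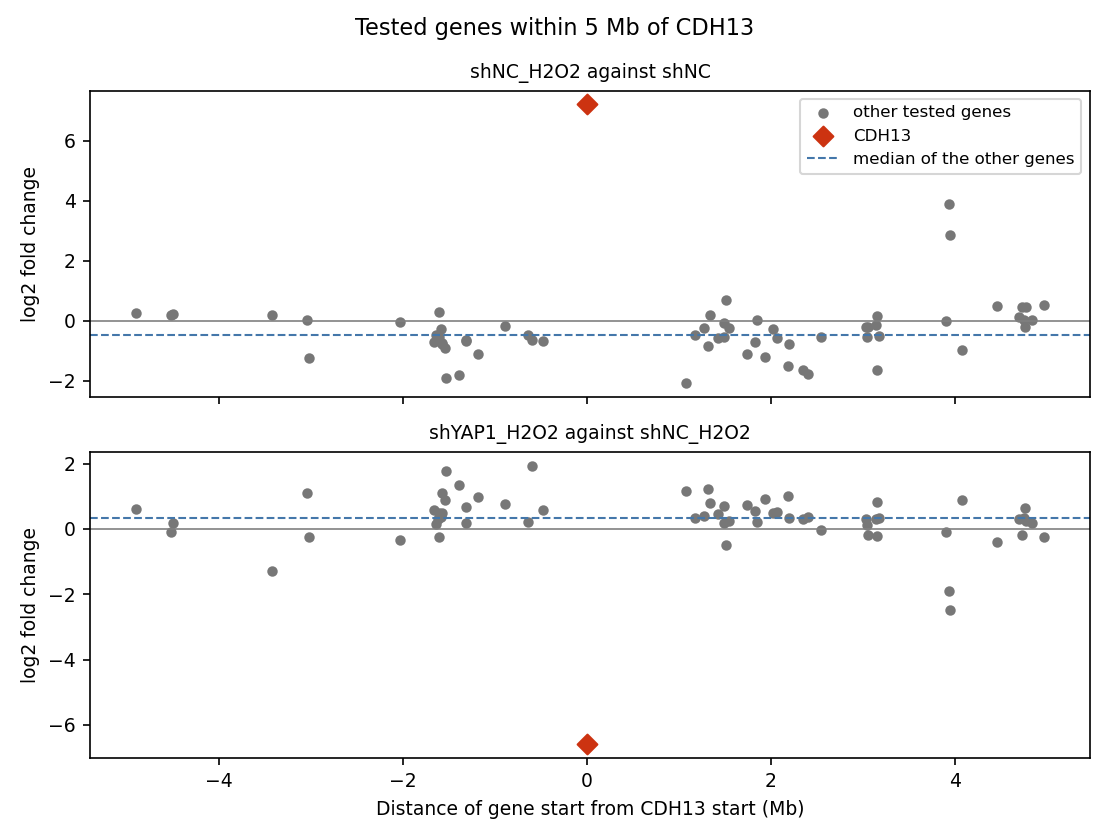
Log2 fold change (vertical axis) of each tested gene within 5 Mb of CDH13 against the distance of its start from the start of CDH13 in Mb (horizontal axis), for shNC_H2O2 against shNC (top) and shYAP1_H2O2 against shNC_H2O2 (bottom). Grey points are the 65 other genes, the dashed line is their median (-0.49 top, 0.34 bottom), and the diamond is CDH13, at 7.22 and -6.58.

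The 5 genes outside the set that tracked CDH13 most closely were found by Pearson r of log2 CPM over the 12 libraries among 14645 candidates with a mean of at least 1 CPM. These were ARNT2 (r = 0.9926), LMO7 (0.9920), DPYD (0.9919), FBN1 (0.9916) and NALF1 (0.9911). All were highest in shNC_H2O2, though by far less than CDH13: FBN1, which encodes fibrillin-1, went from 65.5 ± 3.96 CPM in shNC to 524 ± 8.12, and was at 81.7 ± 7.81 in shYAP1_H2O2. The 12 libraries form 3 groups, so r mostly reflects the group means, and none of the 5 was among the top 5 by Spearman rho (0.762 to 0.930).

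CDH6 (ENSG00000113361, chromosome 5, 31193750 to 31329146, plus strand) encodes the type II cadherin-6, long known from renal epithelium. Its CPM in shNC was 248, 226, 224 and 305, in shNC_H2O2 616, 584, 556 and 591, and in shYAP1_H2O2 292, 229, 422 and 292. The 4 shNC_H2O2 libraries lay above all others, while shNC and shYAP1_H2O2 overlapped. CDH6 was 2.34-fold higher in shNC_H2O2 than in shNC (1.23 ± 0.15) and fell in shYAP1_H2O2 against shNC_H2O2 (-0.93 ± 0.15, interval -1.25 to -0.61, adjusted p = 0.000179). Its neighbours on chromosome 5 moved the same way by less, at medians of 0.21 and -0.23, and the CDH6 differences were 1.00 and -0.69 (adjusted p = 0.00505) with that shift removed. Between shYAP1_H2O2 and shNC it did not pass (0.30 ± 0.15, interval -0.02 to 0.62, adjusted p = 0.141), though it did without shYAP1_H2O2 replicate 2 (0.42, adjusted p = 0.0278). In the other type II gene, CDH11 (ENSG00000140937, chromosome 16, 64943753 to 65126112, minus strand), which is known from mesenchymal cells, there were 6 counts in shNC_H2O2 replicate 2 (0.148 CPM), 4 in replicate 4 (0.0930 CPM) and 0 in the other 10 libraries.

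CDH4 (ENSG00000179242, chromosome 20, 61252426 to 61940617, plus strand) encodes R-cadherin, a type I cadherin first known from retina. It was at 2.35, 3.07, 2.61 and 1.97 CPM in shNC, 11.3, 10.5, 12.1 and 12.1 in shNC_H2O2, and 4.89, 5.24, 3.00 and 5.33 in shYAP1_H2O2. The shNC_H2O2 libraries stood above all others, and shYAP1_H2O2 replicate 3 lay within the range of shNC. CDH4 was 4.59-fold higher in shNC_H2O2 than in shNC (2.20 ± 0.17) and fell in shYAP1_H2O2 against shNC_H2O2 (-1.31 ± 0.17, interval -1.67 to -0.96, adjusted p = 1.1e-05). It was still higher there than its shNC level (0.88 ± 0.18, interval 0.51 to 1.26, adjusted p = 0.00113).

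CDH2 (ENSG00000170558, chromosome 18, 27950966 to 28177446, minus strand) encodes N-cadherin, the type I cadherin of neurons and mesenchyme and also of proximal tubule. It was at 121, 123, 127 and 144 CPM in shNC, 121, 116, 124 and 118 in shNC_H2O2, and 91.9, 93.5, 108 and 97.4 in shYAP1_H2O2. The first pair of groups overlapped, and all 4 shYAP1_H2O2 libraries lay below both. CDH2 was the only tested member not called in shNC_H2O2 against shNC (-0.10 ± 0.07). It fell in shYAP1_H2O2 to 81.4% of its level in shNC_H2O2 (-0.30 ± 0.07, interval -0.44 to -0.15, adjusted p = 0.00252) and to 75.7% of its level in shNC (-0.40 ± 0.07, interval -0.55 to -0.25, adjusted p = 0.000362).

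Promoter sequences in the RefSeq table (GRCh38.p14) were found for 2 of the 8 genes, CDH2 and CDH4, each with 2 annotated starts. Those printed set the type I gene that was not called with the oxidant beside the one that was higher: the 250 bases before the first CDH2 start (chr18:28177131-28177380, minus strand) and before both CDH4 starts (chr20:61499171-61499420 and chr20:61599511-61599760, plus strand), which lie inside the CDH4 gene. Capitals mark CAGGTG, the E-box bound by Snail and ZEB factors, searched on both strands over each 300-base window, as was GGAATG, the TEAD site.
CDH2 first start: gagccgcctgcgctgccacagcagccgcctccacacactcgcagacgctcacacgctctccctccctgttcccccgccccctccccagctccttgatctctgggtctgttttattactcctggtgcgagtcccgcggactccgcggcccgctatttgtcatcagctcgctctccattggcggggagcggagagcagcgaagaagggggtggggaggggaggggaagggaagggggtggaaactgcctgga
CDH4 upstream start: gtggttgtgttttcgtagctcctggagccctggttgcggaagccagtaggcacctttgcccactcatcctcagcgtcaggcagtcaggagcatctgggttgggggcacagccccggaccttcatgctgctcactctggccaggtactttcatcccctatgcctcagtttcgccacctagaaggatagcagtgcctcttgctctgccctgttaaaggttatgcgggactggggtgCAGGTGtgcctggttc
CDH4 downstream start: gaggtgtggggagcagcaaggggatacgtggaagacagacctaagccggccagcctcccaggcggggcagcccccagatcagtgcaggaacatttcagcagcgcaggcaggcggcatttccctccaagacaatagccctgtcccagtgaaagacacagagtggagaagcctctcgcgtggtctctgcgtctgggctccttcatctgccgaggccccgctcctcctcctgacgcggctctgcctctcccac
CAGGTG occurred once, before the upstream CDH4 start, and in none of the other windows, and 20.6% of 35116 promoter windows of that length hold it. GGAATG occurred in none of the 4 windows, against 14.0% of all windows. The GC content was 67% at the first CDH2 start, 40.7% at the second, and 57.3% and 62% at the CDH4 starts. The median over all windows was 58.7%. No window covered the annotated beginning of the CDH4 gene, at 61252426, so its sequence there was not examined.

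CDH1 (ENSG00000039068, chromosome 16, 68737225 to 68835548, plus strand) encodes E-cadherin, the defining cadherin of epithelial junctions. It was at 5.20, 6.25, 5.05 and 6.72 CPM in shNC, 1.07, 1.40, 1.17 and 1.19 in shNC_H2O2, and 3.14, 2.65, 4.60 and 2.06 in shYAP1_H2O2. The 3 groups did not overlap, and shYAP1_H2O2 lay between the other two. CDH1 in shNC_H2O2 was at 20.8% of its level in shNC (-2.26 ± 0.22). It was 2.56-fold its shNC_H2O2 level in shYAP1_H2O2 (1.36 ± 0.22, interval 0.89 to 1.83, adjusted p = 0.000136) and still below shNC (-0.91 ± 0.20, interval -1.33 to -0.48, adjusted p = 0.0026).

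CDH3 (ENSG00000062038, 68636189 to 68722616, plus strand), which encodes P-cadherin and ends 14.6 kb before CDH1, had the same order of groups at lower counts. It was at 1.72, 2.20, 2.74 and 2.64 CPM in shNC, 0.431, 0.344, 0.507 and 0.558 in shNC_H2O2, and 0.961, 1.78, 1.89 and 1.76 in shYAP1_H2O2. The shNC_H2O2 libraries, with 14 to 24 counts each, were below all others, and shNC and shYAP1_H2O2 overlapped. CDH3 in shNC_H2O2 was at 19.8% of its level in shNC (-2.33 ± 0.26), and it rose 3.46-fold from there in shYAP1_H2O2 (1.79 ± 0.26, interval 1.24 to 2.35, adjusted p = 4.6e-05). Between shYAP1_H2O2 and shNC it missed the threshold (-0.54 ± 0.23, interval -1.02 to -0.06, adjusted p = 0.0785), but passed without shNC replicate 1 (-0.66, adjusted p = 0.0468), with the shift of neighbouring genes removed (-0.62, adjusted p = 0.0494) and with a replicate block (-0.55, adjusted p = 0.0448). TANGO6, the next tested protein-coding gene on the other side of CDH1, was at 0.22 ± 0.10 in shNC_H2O2 against shNC (adjusted p = 0.0776). Antisense reads cannot be told apart here either: CDH3-AS1 shares 11.1% of the exon bases of CDH3 and was at 0.151 CPM or less.

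CDH16 (ENSG00000166589, chromosome 16, 66908122 to 66918984, minus strand), the gene of kidney-specific cadherin, was the one member highest in shYAP1_H2O2. It was at 9.53, 10.1, 6.51 and 7.13 CPM in shNC, 10.8, 12.2, 9.79 and 10.3 in shNC_H2O2, and 15.4, 12.6, 16.4 and 14.8 in shYAP1_H2O2. Every shYAP1_H2O2 library lay above the other 8, and shNC and shNC_H2O2 overlapped. CDH16 rose in shYAP1_H2O2 against shNC_H2O2 (0.46 ± 0.14, interval 0.17 to 0.75, adjusted p = 0.0127) and against shNC (0.83 ± 0.14, interval 0.54 to 1.13, adjusted p = 0.000254). Its call in shNC_H2O2 against shNC (0.37 ± 0.14) was lost in 7 of 21 alternative analyses, among them those without shNC replicate 3 (0.27), without shNC replicate 4 (0.30) or without shNC_H2O2 replicate 1, 2 or 4 (0.37, 0.31 and 0.40). Neighbouring genes had a median of 0.24 there, and the value with that shift removed was 0.13.

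**Figure D3:**
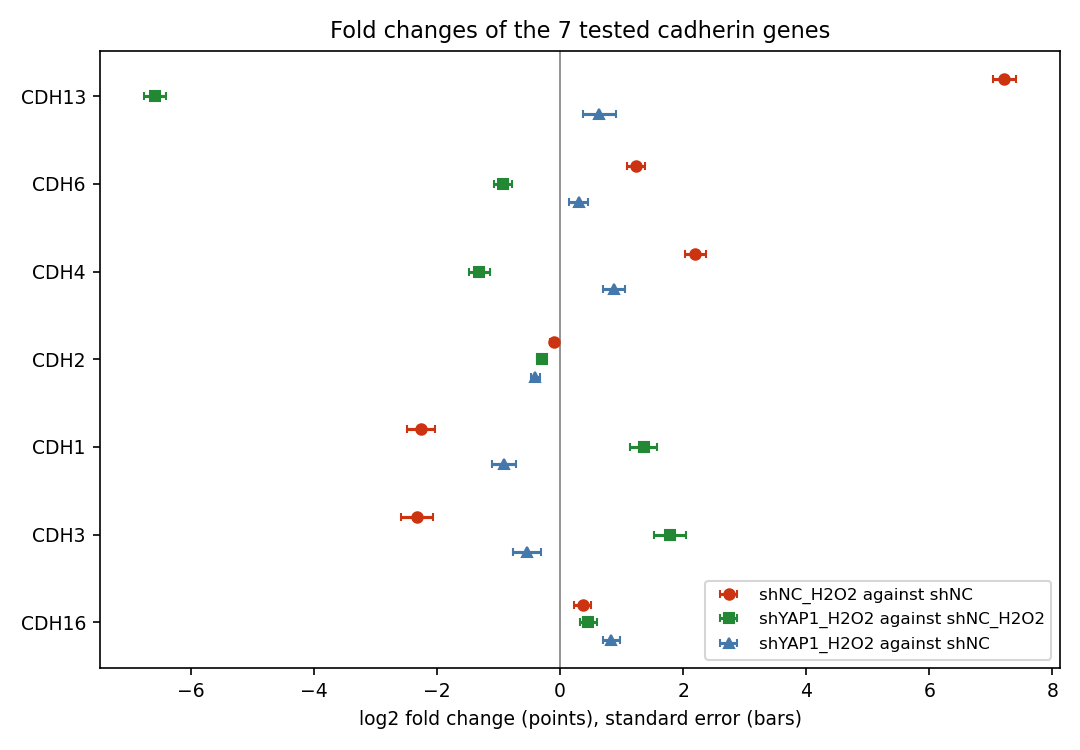
Log2 fold change (horizontal axis, points) with its standard error (bars) for each of the 7 tested cadherin genes in the 3 comparisons. CDH13, CDH6 and CDH4 lie right of 0 for shNC_H2O2 against shNC and left of 0 for shYAP1_H2O2 against shNC_H2O2, CDH1 and CDH3 the reverse, and CDH16 right of 0 in all 3.

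By the test across all genes, 6 of the 7 tested cadherins were called in shNC_H2O2 against shNC (4 higher and 2 lower), in a comparison that called 46.6% of all tested genes (23.9% higher and 22.6% lower) and was used to choose the set. CDH13 is left out of the next counts, since its levels in shNC_H2O2 and shNC chose it. Of the other 6 tested cadherins, 6 were called in shYAP1_H2O2 against shNC_H2O2 (3 higher and 3 lower), beside 43.0% of all genes (22.0% higher and 21.0% lower). In shYAP1_H2O2 against shNC 4 of the 6 were called (2 higher and 2 lower), beside 32.5% (17.4% higher and 15.1% lower). The 3 comparisons share libraries in pairs, so these counts are not independent of one another. Since the other 6 were also picked with earlier results of these data known, the counts are a description. Only genes with enough counts in some group could enter them. The median log2 fold change of the 6 was 0.13, 0.08 and -0.05 in the same order, beside 0.00, -0.00 and 0.00 over all genes tested. Without the 2 libraries rich in mitochondrial counts 5, 6 and 4 of the 6 were called, as with them, and CDH1 was at 1.10, CDH6 at -1.11 and CDH4 at -1.16 in shYAP1_H2O2 against shNC_H2O2.

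Levels were compared between the genes per kilobase of annotated exon. In shNC, CDH2 held 51.8% of the summed level of the 8 genes and CDH6 40.3%, at 26.1 ± 2.14 and 20.3 ± 3.07 CPM per kb, followed by CDH16 with 4.53%, CDH1 with 1.87%, CDH3 with 0.741%, CDH4 with 0.677% and CDH13 with 0.0615%. CDH3 and CDH4 were neighbours in that order within their spread (0.373 ± 0.0745 and 0.340 ± 0.0627 CPM per kb). In shNC_H2O2 the order was CDH6 (58.4%), CDH2 (29.9%), CDH13 (5.90%), CDH16 (3.63%), CDH4 (1.93%), CDH1 (0.240%) and CDH3 (0.0908%), with each neighbour apart by more than its SD. In shYAP1_H2O2 it was CDH6 (49.7%), CDH2 (39.3%), CDH16 (8.07%), CDH4 (1.25%), CDH1 (1.00%), CDH3 (0.511%) and CDH13 (0.0989%). There the means of CDH6 and CDH2 (25.0 ± 6.54 and 19.7 ± 1.45 CPM per kb) and those of CDH4 and CDH1 (0.628 ± 0.149 and 0.504 ± 0.176) differed by less than the larger SD.

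**Figure D4:**
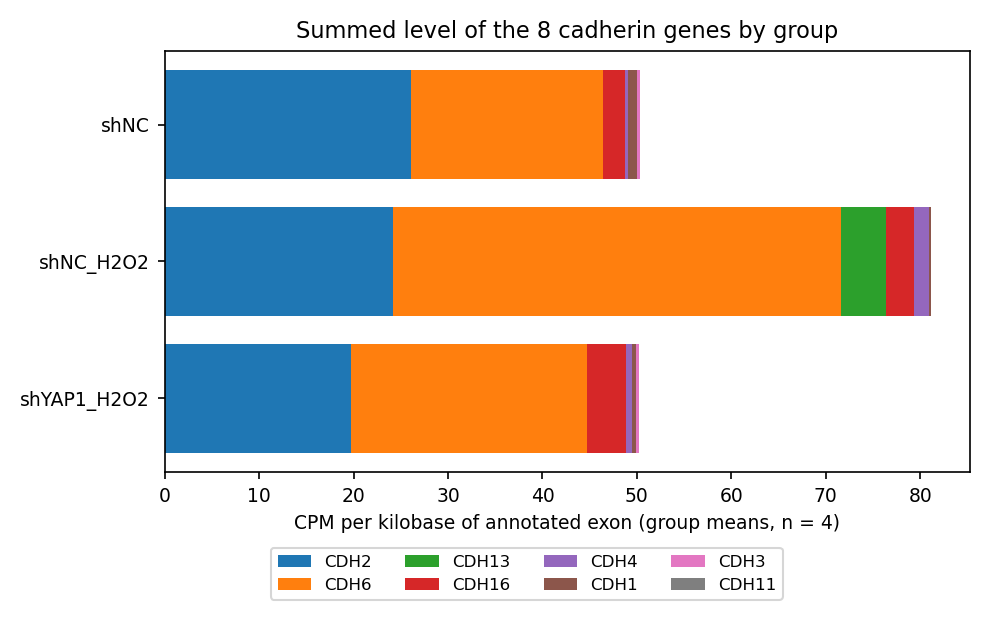
Level of each cadherin gene in CPM per kilobase of annotated exon (horizontal axis, linear from 0), stacked as group means of 4 libraries. The summed level was 50.3 ± 4.90 in shNC, 81.2 ± 1.96 in shNC_H2O2 and 50.2 ± 8.28 in shYAP1_H2O2 (SD), and the CDH6 segment is the widest in shNC_H2O2.

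The summed level of the 8 genes was 79.4 to 84.0 CPM per kb in shNC_H2O2, above every library of shNC (47.2 to 57.6) and of shYAP1_H2O2 (42.3 to 61.9). CDH1 per kb came to 3.61 ± 0.382% of CDH2 in shNC, 0.807 ± 0.112% in shNC_H2O2 and 2.53 ± 0.730% in shYAP1_H2O2. CDH13 per kb came to 10.1 ± 0.415% of CDH6 in shNC_H2O2, and to 0.160 ± 0.0972% and 0.206 ± 0.0390% in shNC and shYAP1_H2O2. These are mixtures of cells, in which fewer cells carrying a transcript and less transcript per cell cannot be told apart.

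Among 13 matched further cadherins only 3 had enough counts to be tested. CDH24, a type II cadherin at 56.3 ± 1.69 CPM in shNC, fell in shYAP1_H2O2 against shNC_H2O2 (-0.56 ± 0.10, adjusted p = 0.000394) and against shNC (-0.67 ± 0.10, adjusted p = 0.000152). CDH26 rose in the former (0.61 ± 0.20, adjusted p = 0.0211), and CDH5, the endothelial cadherin, was at 0.0400 CPM or less by group mean. Calls in these 3 genes over the 3 comparisons, in the order used above, were 1 higher and 0 lower, 1 and 1, and 1 and 1. Of all tested genes 46.6%, 43.0% and 32.5% were called in the same comparisons. The higher gene in both comparisons with shNC was CDH17, named after its values were seen, at 0.155, 0.555 and 0.496 CPM by group.

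The counts of the following lists stand beside shares of 46.6%, 43.0% and 32.5% of all tested genes called in the same comparisons, in the order used above. Of 12 tested catenins and related linkers, 2 were higher and 4 lower in shNC_H2O2 against shNC, 3 higher and 1 lower in shYAP1_H2O2 against shNC_H2O2, and 0 higher and 2 lower in shYAP1_H2O2 against shNC. CTNNB1, the gene of beta-catenin, passed in none, at 318 ± 21.0, 316 ± 10.9 and 302 ± 30.1 CPM. CTNNA1, the gene of alpha-catenin, rose in shYAP1_H2O2 against shNC_H2O2 (0.39 ± 0.08, adjusted p = 0.000724). Of 4 tested genes of nectins and afadin, which build junctions beside cadherins, 2 were higher in shNC_H2O2 against shNC, led by NECTIN1 at 8.80 ± 1.10 and 30.1 ± 1.91 CPM (1.77 ± 0.15, adjusted p = 1.0e-07). NECTIN1 fell in shYAP1_H2O2 (-1.57 ± 0.15 against shNC_H2O2, adjusted p = 5.2e-07), where 1 of the 4 was higher and 2 lower, and 2 were higher against shNC.

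Of 9 tested repressors of the E-cadherin gene, against the same shares of 46.6%, 43.0% and 32.5%, 6 were higher and 1 lower in shNC_H2O2 against shNC, 1 higher and 4 lower in shYAP1_H2O2 against shNC_H2O2, and 3 higher and 1 lower in shYAP1_H2O2 against shNC. TCF4, which encodes the E-protein E2-2, was at 4.55 ± 0.477, 36.8 ± 1.61 and 4.04 ± 0.460 CPM, and fell in shYAP1_H2O2 against shNC_H2O2 (-3.19 ± 0.10, adjusted p = 6.0e-12). SNAI2, which encodes Slug, was at 64.9 ± 13.4, 185 ± 17.3 and 161 ± 26.7 CPM. Its difference between shYAP1_H2O2 and shNC_H2O2 did not pass (-0.20 ± 0.13, adjusted p = 0.246). KLF8 went the other way, at 4.60 ± 0.744, 1.38 ± 0.0626 and 3.16 ± 0.505 CPM. It was the 1 lower in shNC_H2O2 against shNC (-1.73 ± 0.16, adjusted p = 3.2e-07). The 1 higher in shYAP1_H2O2 against shNC_H2O2 was KLF8 too (1.19 ± 0.16, adjusted p = 2.6e-05). FOXC2, named above for its place near CDH13, is also on this list. Of 8 genes of cadherin cleavage and uptake, 2 were higher and 4 lower in shNC_H2O2 against shNC, then 4 and 1, and 1 and 2, again beside 46.6%, 43.0% and 32.5%. ADAM10, the gene of the sheddase of E- and N-cadherin, was at 229 ± 2.15, 158 ± 5.11 and 190 ± 14.1 CPM.

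**Figure D5:**
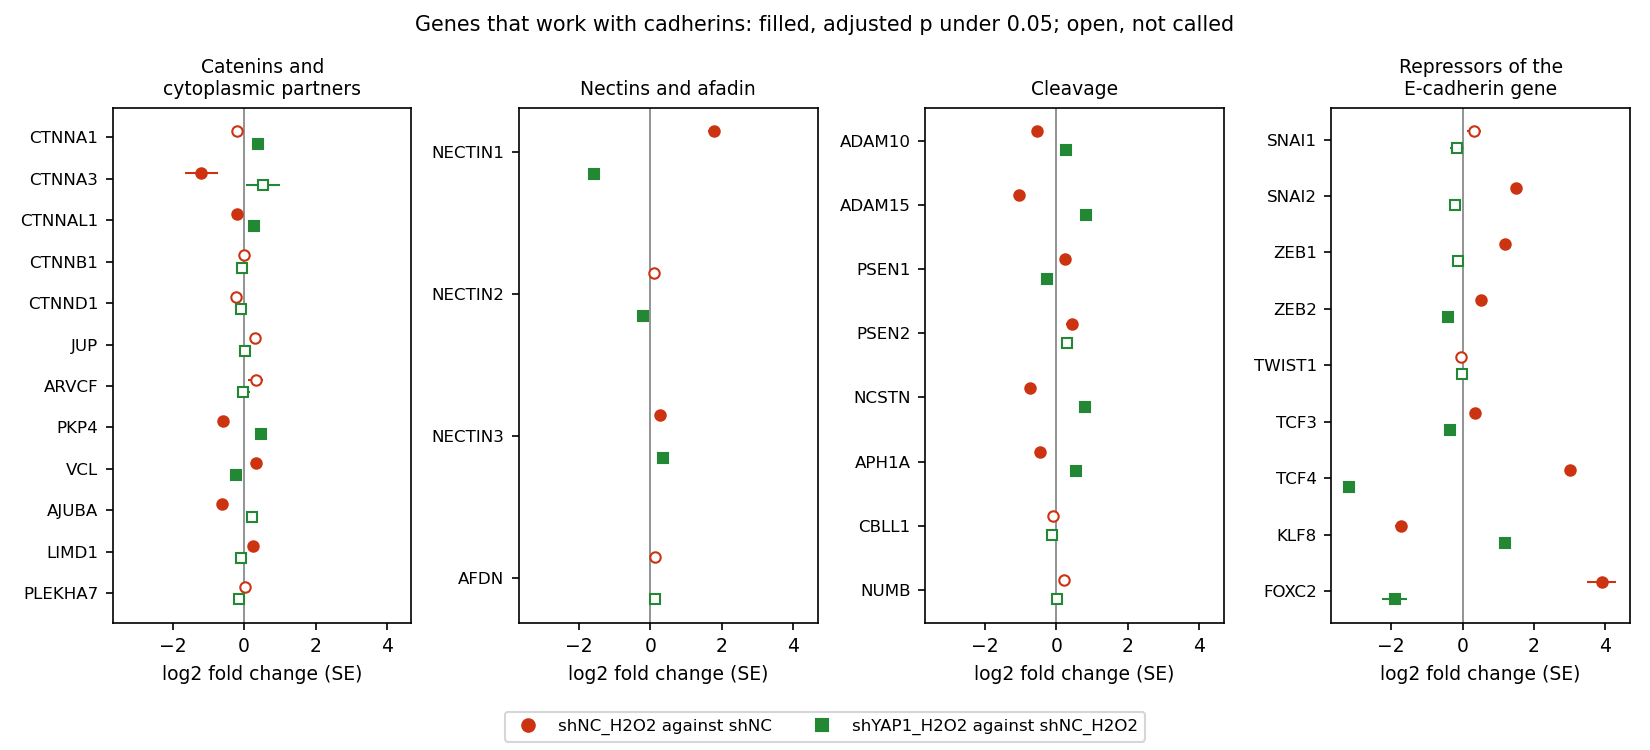
Log2 fold change (horizontal axes, points) with its standard error (bars) of the tested genes of 4 lists, for shNC_H2O2 against shNC (circles) and shYAP1_H2O2 against shNC_H2O2 (squares). Filled symbols passed an adjusted p of 0.05 in edgeR. CTNNB1 is open in both, TCF4 lies at 3.01 and -3.19, and NECTIN1 at 1.77 and -1.57.

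Beside CDH13, 10 genes of GPI anchoring and of the adiponectin receptors were tested: 1 was higher and 5 lower in shNC_H2O2 against shNC, 3 higher and 1 lower in shYAP1_H2O2 against shNC_H2O2, and 0 higher and 2 lower in shYAP1_H2O2 against shNC. These 6, 4 and 2 of 10 lie near the 46.6%, 43.0% and 32.5% of all tested genes. PGAP1, which encodes a remodelling enzyme of the GPI anchor, was at 19.8 ± 0.875, 43.4 ± 1.69 and 21.4 ± 3.29 CPM. PIGS, of the transamidase that attaches the anchor, went the other way at 88.7 ± 9.99, 45.8 ± 1.24 and 69.9 ± 15.5 CPM.

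The summed fibroblast and endothelial markers were highest in shNC_H2O2, mainly through LUM and ERG. The summed level of 9 fibroblast markers was 111 to 113 CPM in shNC, 236 to 255 in shNC_H2O2 and 144 to 172 in shYAP1_H2O2, carried by LUM (98.8, 217 and 149 CPM), with 5 of the 9 under 1 CPM in every library and COL1A2 at 0 throughout. Of the 5 that could be tested, 3 were higher and 2 lower in shNC_H2O2 against shNC, beside 23.9% and 22.6% of all tested genes. The 2 lower were PDGFRB (-0.72 ± 0.18, adjusted p = 0.00391) and THY1 (-1.05 ± 0.36, adjusted p = 0.0274). THY1 was low in every library, at 0.195 to 0.829 CPM. The 7 matched endothelial markers summed to 2.36 to 2.73, 6.75 to 8.39 and 2.14 to 2.62 CPM, of which ERG made 1.94, 7.17 and 2.01 by group mean, with 6 of the 7 under 1 CPM in every library. The 7 leukocyte markers summed to 2.07 to 2.68, 1.67 to 2.36 and 1.72 to 2.40 CPM in the same order of groups. The 7 markers of other nephron segments summed to 0.178 to 0.578, 0.253 to 0.697 and 0.442 to 0.686 CPM. In both of these lists the ranges of the groups overlapped. The part of these levels in the cadherin results was not tested.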

How the data were processed

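Polyadenylated RNA of 12 HK-2 libraries was sequenced as paired ends. The labels name this line, while the protocol for RNA extraction mentions kidney tissue. Whole-number counts per Ensembl gene, 1 table per library, neither scaled nor pooled, were deposited by the authors. HISAT2, featureCounts, Subread, DESeq2 and the GRCh38 (hg38) genome are named per the submitters' processing notes. Which versions, annotation release and strand setting were used is not given in the sources used here. Groups came from the titles.

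From these counts, edgeR 4.0.16 (R 4.3.3) tested all genes kept by filterByExpr (19268) with TMM scaling and a robust quasi-likelihood fit of 1 mean per group over all 12 libraries. A gene was called at an adjusted p (Benjamini-Hochberg) below 0.05, and every adjusted p is from this fit unless another is named. CPM use TMM-scaled totals. Intervals are 95% from the standard error, for each gene alone, with no adjustment for the number of genes. Symbols were found for 40555 of 40649 identifiers by the supplied name table and for another 85 through GENCODE, and positions come from GENCODE on GRCh38. The fit was also run on counts simulated from its own mean levels and from a single spread shared by all genes. That simulation held no libraries rich in mitochondrial counts, and its outcome is not given here. DESeq2 1.42.0 served as an alternative.

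The named genes were the 8 cadherins, YAP1, from each list and comparison up to 2 called genes of largest rise and 2 of largest fall at a mean of 1 CPM or more, the 5 genes most like CDH13, and the nearest tested protein-coding genes of CDH13, CDH1 and CDH2. CTNNB1, CDH5, CDH17, FOXL1, LRP2, CUBN, COL1A2 and THY1 were named outside this rule, after their values were seen. The antisense genes CDH13-AS1, CDH13-AS2 and CDH3-AS1 were also outside it. The members, lists and alternatives were chosen with earlier results of these data known. Replicate numbers did not pair libraries: same-numbered libraries correlated at -0.222 to 0.1026 over 12 pairs.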

Additional observations from a re-analysis of the deposited data

Results flagged for a closer look

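CDH3 in shYAP1_H2O2 replicate 1 lay at 0.961 CPM (37 counts), apart from the other 3 libraries of the group at 1.76 to 1.89 CPM. Its gap to the nearest was 0.867 of the range of the group, over Dixon's 95% critical value of 0.829 for 4 samples. It was 1 of 25 groups of values examined in this way, and chance puts about 1 in 20 past that value.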

How the results depend on the processing

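The calls of the 6 tested cadherins other than CDH13 in shYAP1_H2O2 against shNC_H2O2 held in all 21 alternatives, with CDH2 between -0.48 and -0.27. CDH13, which was chosen on these libraries, is given as a value only and lay between -6.98 and -6.52. In 539 of 567 recomputed counts of calls the value stayed within 1.5 times. Exceptions among the lists follow, and the cause was not tested. In shNC_H2O2 against shNC the further cadherins called went from 1 to 2 with no filter or with the shift of neighbouring genes removed. Catenins there went from 6 to a range of 3 to 8 with 1 library left out. The 3 came without shNC replicate 3 or shNC_H2O2 replicate 1. In shYAP1_H2O2 against shNC_H2O2 the further cadherins went from 2 to a range of 1 to 2 with 1 library left out. The 1 came without shNC_H2O2 replicate 1 or 3 or shYAP1_H2O2 replicate 2. Repressors there went from 5 to 3 with the neighbouring shift removed. They went to 8 without the 2 libraries rich in mitochondrial counts, and the GPI list from 4 to 8 without those 2. In shYAP1_H2O2 against shNC, leaving out those 2 gave 7 catenins instead of 2, 5 cleavage genes instead of 3 and 5 GPI genes instead of 2. There the catenins were 1 with only the 8 libraries compared, 0 with the neighbouring shift removed, and 2 to 5 with 1 library left out (5 without shYAP1_H2O2 replicate 3), and the GPI genes were 1 with no filter or only 8 libraries, and 1 to 4 with 1 left out (4 without shYAP1_H2O2 replicate 3). With the replicate block 8536, 7798 and 5731 genes were called in the 3 comparisons, against 8971, 8288 and 6265 without it, and 5, 6 and 5 of the 6 cadherins, against 5, 6 and 4. Among these 6 the block changed no call other than that of CDH3 in shYAP1_H2O2 against shNC. Replicate numbers are only names here, with 1 library correlating best with its own number. Library sizes alone moved the share of higher calls from 51.4% to 60.4%, 51.1% to 43.2% and 53.7% to 57.4%. Depth limits CDH11 and, outside shNC_H2O2, CDH13.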

Other observations

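Protocadherins and other atypical members of the superfamily, 21 of them tested, were called in both directions: 5 higher and 7 lower with H2O2 (shNC_H2O2 against shNC), 6 and 5 with the YAP1 hairpin (shYAP1_H2O2 against shNC_H2O2), and 6 and 5 between shYAP1_H2O2 and shNC. Of all tested genes 46.6%, 43.0% and 32.5% were called. CLSTN2, which encodes calsyntenin-2, was at 948 ± 115 CPM in shNC, 18.2 ± 0.610 in shNC_H2O2 and 454 ± 50.8 in shYAP1_H2O2 (SD, n = 4), a log2 difference of -5.70 ± 0.11 (adjusted p = 1.3e-14) and then 4.64 ± 0.10 (adjusted p = 9.8e-14). PCDH10 was likewise lowest in shNC_H2O2, at 2.98 ± 0.316, 0.567 ± 0.311 and 3.17 ± 0.852 CPM. PCDH7 was highest in shNC_H2O2, at 7.66 ± 0.704, 38.5 ± 4.81 and 20.0 ± 2.93 CPM. FAT2 was highest in shYAP1_H2O2, at 2.17 ± 0.680, 2.37 ± 0.445 and 6.24 ± 1.06 CPM.

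CHST9, the nearest tested protein-coding gene before CDH2 at 766 kb, was at 8.64 ± 1.18, 1.25 ± 0.225 and 8.04 ± 1.06 CPM, while CDH2 itself was not called in shNC_H2O2 against shNC.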
